A study of Mus musculus with 369 samples.

Results

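The 10 genes followed here are widely used as markers of border-associated macrophages, and they were read in single mouse microglia: Mrc1, Stab1, Dab2, Folr2, Lyve1, Cd163, Siglec1, F13a1, Cbr2 and Pf4. They were chosen by symbol, and all 10 were found among the 23337 genes of the count table. A cell was counted as carrying a member when the gene reached 10 CPM (counts scaled to the total gene counts of the cell, per 1000000), and the cells that carried 3 or more members were then asked for their microglial markers. The study sorted single microglia from whole brains of male mice on postnatal day 7 and sequenced them by Smart-seq2, a full-length method without molecular identifiers. All 3 quality criteria of the submitters were met by 334 cells, which were used, and missed by 35.

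The cells fall into 4 groups on a C57BL/6J background. Wild-type cells came from the CD45low CD11b+ gate, called unselected here (78 passing cells of 90), or from the part of that gate that also stained for Gpnmb and Clec7a, called gated here (90 of 93). Trem2 knockout cells came from the same gates, with 90 of 93 unselected and 76 of 93 gated cells passing. Cells were freed by douncing, and myelin was removed with magnetic beads before the sort. Each group is 1 plate and no animal is named, so each group was taken as 1 sample and differences between groups could not be tested. Effects of the plate cannot be told apart from those of genotype or gate. How the knockout allele was made was not given in the sources used here.

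Border-associated macrophages live in the meninges, around vessels and in the choroid plexus, at the edges of the brain, whereas microglia live in its tissue. They are known for taking up material from blood and cerebrospinal fluid, and many of their marker genes encode the receptors and adaptors of that uptake. Several of these genes have also been reported in immature microglia, so a marker gene alone does not name a cell.

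Passing cells held between 157653 and 1051282 gene counts, with group medians from 494746 to 697689. Median numbers of detected genes were 2607.5 and 3162.5 in wild-type unselected and gated cells, and 2184 and 3995 in the knockout groups. Trem2, the targeted receptor, stood at 1115 and 1604 CPM in wild-type unselected and gated cells and at 229 and 413 CPM in knockout cells, and its remaining counts cannot be placed within the gene. The gate's own genes were higher behind the gate, with Gpnmb at 216 and 1697 CPM in wild-type and at 85.2 and 4233 CPM in knockout unselected and gated cells. The microglial label was checked with 10 microglial markers, of which 310 of 334 cells (92.8%) carried 7 or more at 10 CPM.

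Positions are those of mm10 in GENCODE M21, and the table counts reads per gene. The receptors Mrc1 (chr2:14229392-14332057, plus strand), Stab1 (chr14:31139013-31168641, minus), Folr2 (chr7:101839988-101857194, minus), Lyve1 (chr7:110850607-110863239, minus), Cd163 (chr6:124304656-124330527, plus) and Siglec1 (chr2:131069220-131086765, minus) are joined by the adaptor Dab2 (chr15:6299788-6440712, plus). The enzymes and the chemokine are F13a1 (chr13:36867178-37050244, minus), Cbr2 (chr11:120729489-120732114, minus) and Pf4 (chr5:90772435-90773383, plus). Folr2 shares 975 exon bases (63.1% of its exons) with the antisense gene Gm10602. Strand use in the counting is not given, so reads of the pair cannot be told apart, and Folr2 levels carry that limit throughout. Stab1 shares 112 exon bases (1.09%) with Nt5dc2 on the other strand, and Dab2 and F13a1 share 2.87% and 1.1% of theirs with a pseudogene and an antisense gene.

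Because members that move together may share letters near their starts, RefSeq promoters (GRCm38, the same build) were searched in the 250 bases before each start, on both strands. Promoters were found for 8 of the 10 members, with 11 windows. The motif GAGGAA, which reads TTCCTC on the other strand and is the core bound by the myeloid factor PU.1, was in 7 of 11 windows and in 6 of 8 genes, and in 23.3% of 32851 promoters of the same length. The motif TGCTGAC, from the MAF site, was in 0 of 11 windows against 3.81% of promoters. The AP-1 motif TGANTCA was in 1 window, of Folr2, against 6.75%. A match describes letters and is not shown to be a site. Below are the last 100 bases before the start of 2 members found in many cells (Mrc1, Stab1) and 2 found in few (F13a1, Pf4), 5′ to 3′ on the gene's strand, with the PU.1 motif in capitals. They show that the motif stands before members of both kinds.
Mrc1, chr2:14229314-14229413, plus strand: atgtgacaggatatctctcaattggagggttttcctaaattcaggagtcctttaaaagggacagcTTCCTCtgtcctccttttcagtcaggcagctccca
Stab1, chr14:31168642-31168741, minus strand: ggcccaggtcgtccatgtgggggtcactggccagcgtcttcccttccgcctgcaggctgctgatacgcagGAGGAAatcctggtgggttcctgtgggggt
F13a1, chr13:37050245-37050344, minus strand: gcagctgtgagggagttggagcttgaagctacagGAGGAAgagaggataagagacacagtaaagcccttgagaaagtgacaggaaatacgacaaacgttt
Pf4, chr5:90772335-90772434, plus strand: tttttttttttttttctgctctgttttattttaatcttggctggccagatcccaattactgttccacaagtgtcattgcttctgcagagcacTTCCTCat

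The members split into 4 genes carried by 12.8% or more of cells in every group and 6 that were rare or absent outside the gate. This split was made after the values were seen. The 4 genes, called widespread here, were Stab1, Mrc1, Dab2 and Folr2. Folr2 was the least common of them outside the gate, in 12.8% of wild-type and 16.7% of knockout unselected cells. The other 6, Lyve1, Cd163, Siglec1, F13a1, Cbr2 and Pf4, had a median of 0 CPM per cell in all 4 groups. Intervals below are exact 95% intervals (Poisson for summed counts, Clopper-Pearson for shares of cells). They cover counting error only, since amplified reads of 1 cell are not independent molecules and 1 plate shows no spread between animals.

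Stab1, which encodes the scavenger receptor stabilin-1, was the most widespread member. Wild-type cells had 465 CPM (458 to 472) when unselected and 1007 CPM (999 to 1016) when gated. Its level was 409 CPM (404 to 414) and 1175 CPM (1166 to 1185) in knockout unselected and gated cells. Single cells ranged from 0 to 2984 CPM with a median of 282 in wild-type unselected cells, from 0 to 3241 with a median of 751 in wild-type gated cells, and from 0 to 2378 with a median of 196 in knockout unselected cells. The knockout gated range was 36 to 4142 CPM with a median of 1036, and all 76 cells carried the gene. Shares of cells at 10 CPM were 83.3%, 92.2%, 75.6% and 100%, so the ranges overlapped while both gated medians stood above both unselected ones.

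Mrc1, the mannose receptor, differed in opposite ways by share and by CPM level where knockout gated cells were compared. Behind the wild-type gate both were higher. The share of cells at 10 CPM was 52.6% (40.9 to 64) and 57.8% (46.9 to 68.1) in wild-type unselected and gated cells, and 53.3% (42.5 to 63.9) and 78.9% (68.1 to 87.5) in knockout cells. The summed level was nevertheless lowest in knockout gated cells, at 303 CPM (298 to 308), against 442 CPM in knockout unselected cells, and wild-type cells had 344 CPM outside and 455 CPM behind the gate. Among carrying cells the median was 266 CPM in knockout gated cells and 570 CPM in knockout unselected cells, and the highest cells reached 1827 and 4190 CPM. The highest wild-type gated cell, in well D1, reached 8452 CPM and held 14.2% of that group's Mrc1 counts. The highest wild-type unselected cell reached 2200 CPM.

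Dab2, a clathrin adaptor that brings receptors into the cell, stood at 126 and 410 CPM in unselected and gated wild-type cells and at 202 and 356 CPM in the knockout pair. Values below keep that order of the groups. Medians per cell were 0, 172, 20.1 and 285 CPM from a lowest value of 0 in every group, with highest cells at 1408, 4237, 2759 and 1378 CPM. It was carried by 39.7%, 67.8%, 53.3% and 86.8% of cells. Both gated groups thus held more carrying cells, while the highest knockout gated cell lay below the highest knockout unselected one. Folr2, the folate receptor beta, was at 27.5, 126, 41 and 279 CPM, with highest cells at 977, 1436, 847 and 2472 CPM. Its median was 173 CPM in knockout gated cells and 0 in the other groups, and 12.8%, 40%, 16.7% and 77.6% of cells carried it.

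Among the rarer receptors, Lyve1, which binds hyaluronan, had 0 counts in 78 wild-type unselected cells, where the exact interval reaches up to 4.62% of cells with a count. It was at 73.2 CPM (70.9 to 75.5) in wild-type gated cells, from 9 of 90 cells at 10 CPM, with well C9 at 3166 CPM holding 52.9% of the counts. In knockout unselected cells 1 cell, well H1 at 256 CPM, held all of its counts. In knockout gated cells it was at 86.5 CPM (83.9 to 89.1), but from 2 cells, and well C12 at 4924 CPM held 85.7% of the counts. The levels of the gated groups were therefore close while the numbers of carrying cells were 9 and 2.

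Cd163, the receptor for haemoglobin bound to haptoglobin, was at 31.1 CPM in wild-type gated cells, from 5 cells of which well B6 at 1034 CPM held 51.3% of the counts. Among knockout gated cells it was at 19.9 CPM, all from well C12 at 1320 CPM. Unselected cells held 0 counts in wild type and 5 counts, in 1 cell, in knockout. Siglec1, a lectin that binds sialic acids, had 0 counts in both unselected groups, where the same interval reaches 4.62% of wild-type and 4.02% of knockout cells. It was at 14.4 CPM in wild-type gated cells (6 cells, highest 647 CPM in well H7) and at 12.9 CPM in knockout gated cells (7 cells, highest 254 CPM in well D3).

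F13a1, the catalytic subunit of a transglutaminase that cross-links fibrin, had 0 counts in both unselected groups. It was at 156 CPM (153 to 160) in 9 wild-type gated cells, with 43.9% of the counts in well H4 at 5356 CPM. It was at 78.4 CPM (76 to 80.9) in 6 knockout gated cells, with 49.3% in well G3 at 3651 CPM. Cbr2, a carbonyl reductase, was at 2.16 and 4.41 CPM in wild-type and knockout unselected cells and at 38.9 and 54.5 CPM in gated cells. Its carrying cells numbered 1 of 78 and 6 of 90 among unselected and 6 of 90 and 13 of 76 among gated cells, wild type before knockout. The highest, well C12 of the knockout gated cells at 2408 CPM, held 66.6% of that group's Cbr2 counts.

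Pf4, a chemokine best known from platelets and also made by macrophages, was the least rare of these 6 genes behind the gate. It was carried by 21 of 90 wild-type gated cells (23.3%, 15.1 to 33.4) and 18 of 76 knockout gated cells (23.7%, 14.7 to 34.8), against 1 of 78 and 3 of 90 unselected cells. The gated levels nevertheless differed, at 90.2 CPM (87.7 to 92.8) in wild type and 33.7 CPM (32.1 to 35.3) in knockout. Among carrying cells the median was 163 CPM in wild type and 37.8 CPM in knockout, while the highest cells were alike at 2016 CPM (well H7) and 1898 CPM (well G3, 45.7% of the counts).

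**Figure D1:**
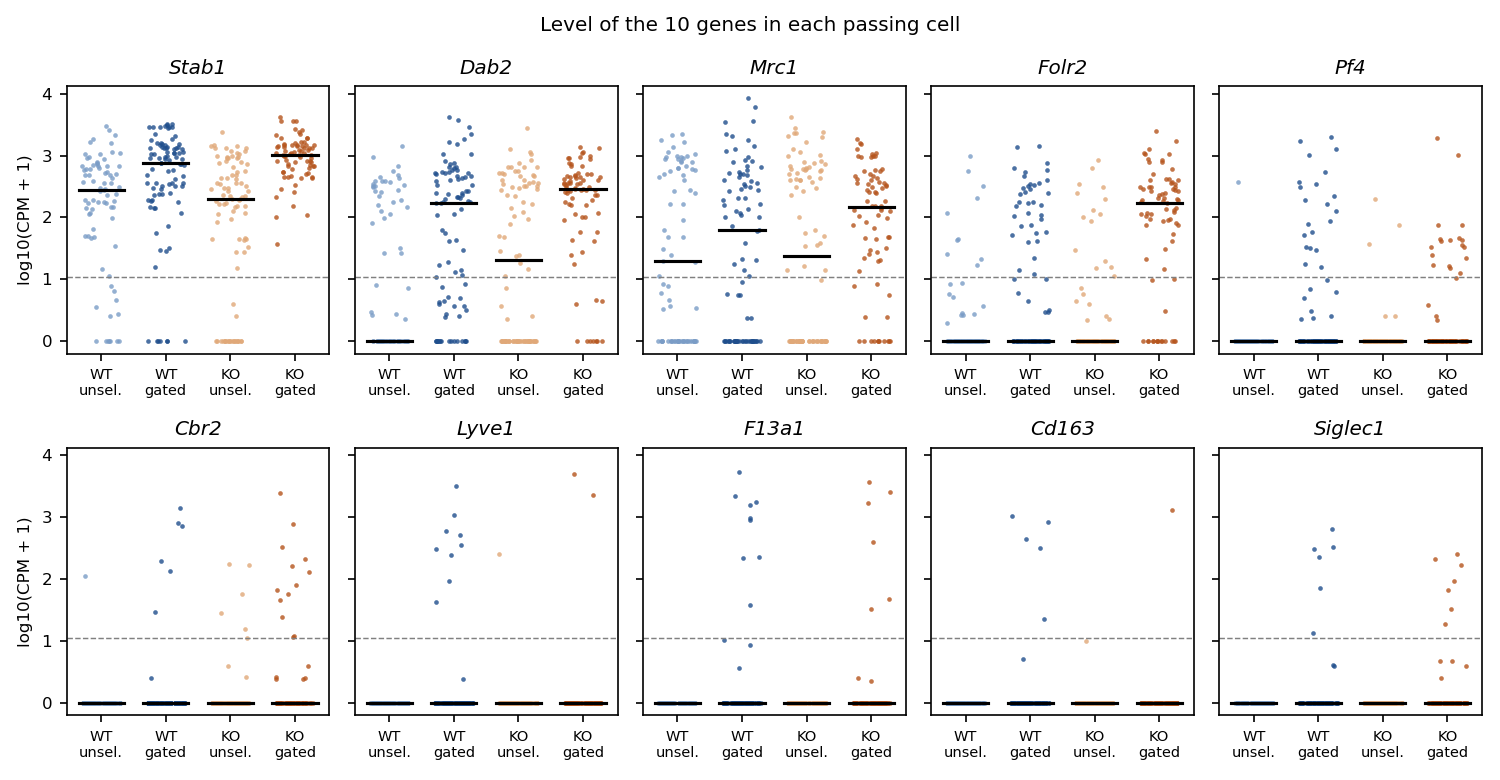
Level of each member in every passing cell, as log10(CPM + 1) on the vertical axis, by group on the horizontal axis, with a dashed line at 10 CPM. Each point is a cell, and Stab1, Mrc1, Dab2 and Folr2 spread over all groups while Lyve1, Cd163, Siglec1 and F13a1 rest on few gated cells.

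Levels of different genes can be compared only per exon length. Per kilobase, the order in wild-type gated cells was Pf4 (125 CPM per kb), Stab1 (97.9), Folr2 (81.4), Mrc1 (71.4), Dab2 (55.8), Cbr2 (29.3), Lyve1 (25.1), F13a1 (23.2), Cd163 (5.69) and Siglec1 (2.01). In knockout gated cells Folr2 led at 181 CPM per kb, before Stab1 at 114, Dab2 at 48.6, Mrc1 at 47.6 and Pf4 at 46.8, the last 3 being close. Unselected cells were led by Mrc1, at 53.9 CPM per kb in wild type and 69.3 in knockout, and then by Stab1 at 45.2 and 39.7. The first place of Pf4 among wild-type gated cells rests on the 8 cells with 7 or more members: in the other 82 cells it was at 17.5 CPM per kb, behind Stab1 (86.6), Folr2 (68.6), Mrc1 (38.6) and Dab2 (31.5). It was behind all of the 4 widespread genes in both unselected groups.

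To ask how the gate related to the members, gated cells were compared with unselected cells within each genotype. A gene was called higher or lower at a 2-fold or larger ratio of CPM + 1 when the mean CPM over cells pointed the same way, so the calls go by size alone and carry no p-value. In wild-type cells 9 of 10 members were higher, against 15.2% of 10554 measured genes higher and 19.9% lower. Pf4 was 19.6-fold higher, Cbr2 18.0-fold, Folr2 4.58-fold, Dab2 3.25-fold and Stab1 2.17-fold. F13a1 was 2031-fold, Lyve1 951-fold, Cd163 404-fold and Siglec1 187-fold higher over a floor of 3 counts, set where the unselected group had none. This floor covers counting error and not the sampling of cells, so these ratios are not lower limits. The 1 knockout unselected cell with Lyve1 alone held 146 counts. Mrc1 was 1.32-fold higher and not called.

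In knockout cells 8 of 10 members were higher, against 12.4% of measured genes higher and 22% lower. Lyve1 was 33.7-fold higher, Cbr2 12.4-fold, Pf4 10.4-fold, Folr2 6.81-fold and Stab1 2.88-fold, and Cd163 was 226-fold higher over the 5 counts of the unselected group. Over the same floor of counts F13a1 was 1487-fold and Siglec1 245-fold higher. Dab2, at 1.77-fold, passed the size rule only with other scalings, and Mrc1 was 1.46-fold lower, a log2 difference of -0.54 that stood at 0.79 with spike-in scaling. The median log2 difference of the members was 3.80 behind the wild-type and 3.20 behind the knockout gate, against -0.12 and -0.26 over all measured genes.

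These counts rest in part on a handful of cells. The 12 cells with 7 or more members, 8 wild-type gated and 4 knockout gated, are described further on. Without them, 4 of 8 measured members were higher behind the wild-type gate (F13a1, Folr2, Pf4 and Siglec1), against 15% of 10538 genes measured in the same cells, with log2 differences from 1.29 to 2.52. Stab1 then stood at 0.94 and Dab2 at 0.87, Mrc1 at -0.48 and Cbr2 at -1.19. Without the 4 knockout cells 6 of 8 measured members were higher (F13a1, Folr2, Cbr2, Stab1, Pf4 and Siglec1), against 11.9% of genes, and Lyve1 turned to -1.83. Folr2 was the widespread gene that stayed past 2-fold in both genotypes without these cells, at 1.91 and 2.48 on the log2 scale. Knockout gated cells also had more detected genes than any other group, and the part of that in the result was not tested.

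**Figure D2:**
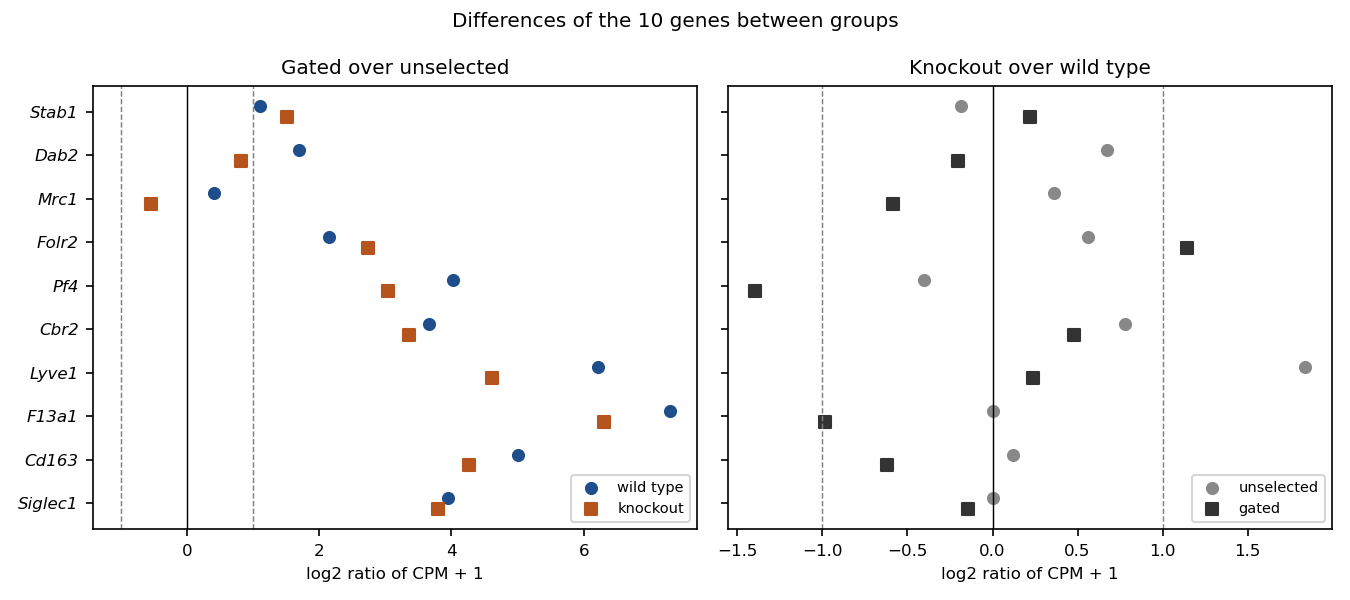
Log2 difference of each member on the horizontal axis for the 4 comparisons of gate and genotype, from summed CPM + 1. The gate differences of 9 members in wild type and 8 in knockout lie past 2-fold, while most genotype differences lie within it.

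The genotypes were compared within each gate. In unselected cells 1 of 10 members was higher in knockout, against 16.5% of measured genes higher and 13.3% lower. It was Lyve1, whose counts came from 1 cell. Dab2 (log2 difference 0.67), Folr2 (0.56), Mrc1 (0.36), Stab1 (-0.19) and Pf4 (-0.40) stayed within 2-fold, and F13a1 and Siglec1 were at 0 in both genotypes. In gated cells Folr2 was 2.22-fold higher and Pf4 2.68-fold lower in knockout cells, so 1 member was higher, against 11.4% of measured genes, and 1 lower, against 1275 of 10554 genes. The number lower was not stable, at 5 in cells with 7 or more microglial markers, 4 without the top cell of each member, and 0 after thinning or without the cells with 7 or more members.

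F13a1 lay just within the rule, with a log2 difference of -0.99 between knockout and wild-type gated cells, and Mrc1 was at -0.58. Both values moved when the cells with 7 or more members were left out. Without those cells F13a1 stood at 2.01, Mrc1 at 0.19, Pf4 at -0.62 and Cbr2 at 3.09, and the members higher in knockout were F13a1, Folr2 and Cbr2, 3 of 8, against 11.9% of genes. Folr2 kept its difference, at 1.14 with and 1.13 without them. The median over the members was 0.24 in unselected and -0.17 in gated cells, against 0.05 and 0.00 over all genes.

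Next, members were counted per cell. At least 3 members were found in 25 of 78 unselected (32.1%, 21.9 to 43.6) and 54 of 90 gated wild-type cells (60%, 49.1 to 70.2). The knockout numbers were 31 of 90 unselected (34.4%, 24.7 to 45.2) and 69 of 76 gated cells (90.8%, 81.9 to 96.2). They made up 179 of the 334 cells. With every cell thinned to 100000 gene counts the numbers were 30, 59, 31 and 70.

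Most of these cells were defined by the widespread genes. Stab1 was present in 25, 53, 31 and 69 of them and Dab2 in 22, 52, 28 and 64. No rarer member reached 10 CPM in 23 of the 25 wild-type unselected cells (92%) and in 30 of the 54 gated ones (55.6%). The same held for 24 of 31 knockout cells outside the gate (77.4%) and for 38 of 69 behind it (55.1%). With the widespread genes left out, 3 or more of the 6 rarer members were found in 9 wild-type gated and 4 knockout gated cells and in 0 unselected cells. The highest number of members in an unselected cell was 4 in wild type and 6 in knockout (1 cell, well E11).

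Cells with 3 or more members are a range of a count and not a cell type. Exactly 3 members were found in 20, 22, 19 and 16 cells, and exactly 2 in 24, 19, 31 and 4. In cells with exactly 3 members the third-ranked gene ran from 15.8, 10.09, 10.2 and 13.6 CPM upward, with medians of 112, 89.4, 76.6 and 81.5 CPM. In cells with exactly 2 the third-ranked gene reached at most 7.39, 9.19, 8.77 and 4.56 CPM. Between 0 and 4 cells of a group lay at 5 to 10 CPM and between 2 and 7 at 10 to 20 CPM.

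**Figure D3:**
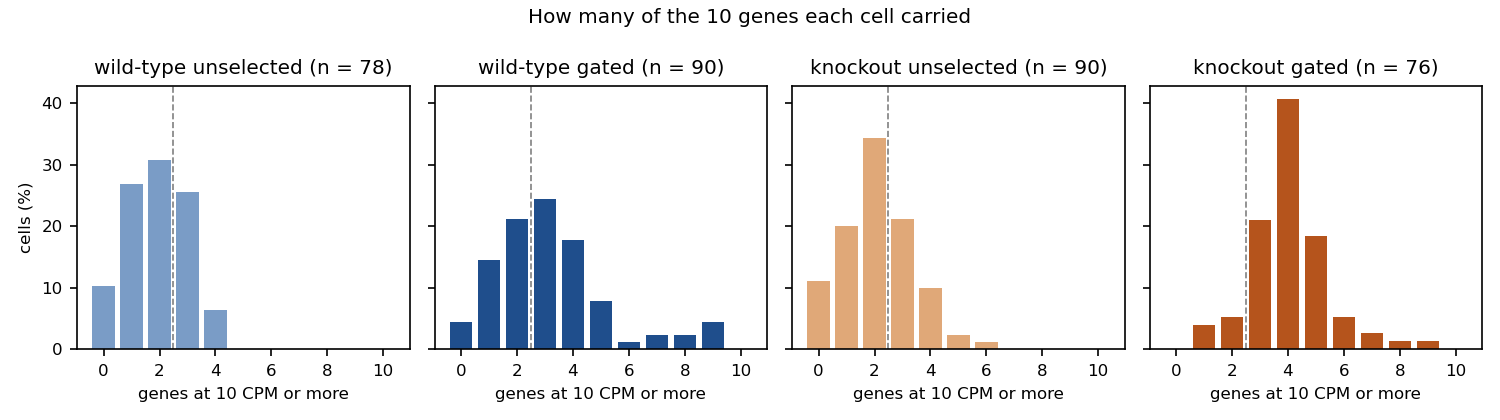
Number of members at 10 CPM or more per cell (horizontal axis) and the share of passing cells in percent (vertical axis), by group. Unselected cells end at 4 members in wild type and 6 in knockout, and 8 wild-type and 4 knockout gated cells hold 7 or more.

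Most cells with 3 or more members also carried most microglial markers. The 10 markers, fixed apart from the members, included the purinergic receptor P2ry12, the surface protein Tmem119 and the transcription factor Sall1. A median of 10, 9, 10 and 8 markers reached 10 CPM in cells with 3 or more members, against 10, 9, 9 and 9 in the other cells of the same plates. At least 7 markers were found in 24 of 25 unselected (96%) and 46 of 54 gated (85.2%) wild-type cells with 3 or more members, and in 31 of 31 (100%) and 65 of 69 (94.2%) knockout cells. The shares in the other cells were 96.2%, 91.7%, 91.5% and 85.7%.

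By level, 0 of 10 microglial markers were called lower in cells with 3 or more members in any of the 4 plates. The shares of measured genes called lower were 24.2% and 16.3% in unselected and gated wild-type cells and 22.2% and 13.3% in knockout cells. P2ry12 was at 4682 CPM against 5517 in wild-type unselected cells, 1640 against 1987 in wild-type gated cells, 4067 against 6278 in knockout unselected cells and 722 against 787 in knockout gated cells. It was a little lower in all 4 plates, within 2-fold. The summed level of the 10 markers was graded outside the gate, from a median of 35123 CPM with 1 member to 28318 with 4 in wild type, and from 37133 with 1 to 24611 with 4 in knockout, while cells with 0 members had 25217 and 32123 CPM. Wild-type gated medians went from 27743 CPM with 0 members to 17276 with 3 and 14331 with 7 or more, and knockout gated medians from 15446 with 1 to 16325 with 4 and 7340 with 7 or more.

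The lowest ratios were in wild-type gated cells, where Sall1 stood at 135 against 272 CPM (log2 -1.0, just within the rule) and Tmem119 at 275 against 506 (-0.88). With other cut-offs for members, 1 to 3 markers were called lower in that plate. Behind the knockout gate P2ry13 (877 against 258 CPM) and Slc2a5 (41.1 against 0) were called higher, against 37.7% of measured genes, and only 7 other cells made up that comparison. Medians over the markers were -0.05, -0.30, -0.32 and -0.02 in the order above, against -0.06, 0.04, -0.05 and 0.41 over all measured genes. Cells with 3 or more members had more detected genes in every plate, with medians of 4247 against 2313, 3547.5 against 2641, 3170 against 1846 and 4015 against 3480. Thinned, these medians were 3157 against 1926, 3081 against 2169, 2533 against 1702 and 3626 against 3178, and their part in the results was not tested.

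**Figure D4:**
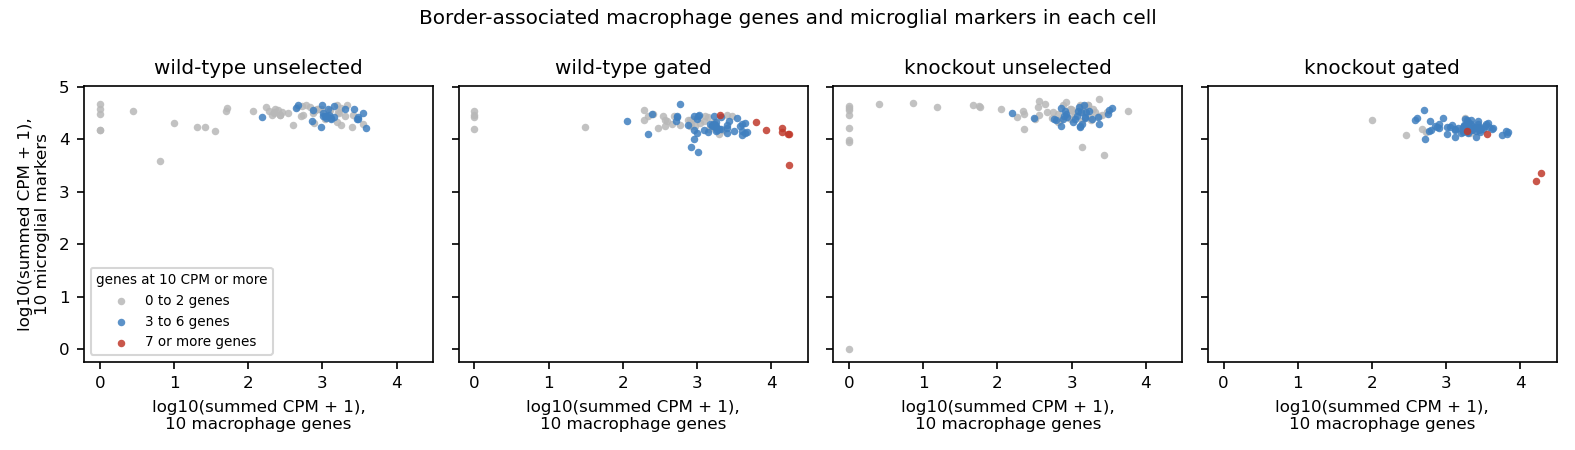
Summed level of the 10 microglial markers (vertical axis) against that of the 10 members (horizontal axis), both as log10(summed CPM + 1), in each passing cell by group, with colour for the number of members at 10 CPM or more. Cells with 3 to 6 members overlap in height with the cells with fewer, and 3 gated cells with 8 or 9 members lie at 3263 CPM or below, as does 1 knockout unselected cell with 0 members, at 0 CPM.

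Other genes reported in border-associated macrophages were read in the same cells, since the count of members did not use them. In wild-type gated cells 9 of 19 measured genes were higher in cells with 3 or more members and 1 was lower, against 21.7% of all measured genes higher. The C-type lectin Cd209f was at 136 against 0 CPM, the ectoenzyme Cd38 at 125 against 0.09, and Ms4a7 at 83.4 against 0.05. Much of this came from the 8 cells of that plate with 7 or more members, at 911, 788 and 274 CPM. In the other 82 cells Cd209f stood at 0.24 CPM, Cd38 at 5.1 and Ms4a7 at 27.7. Behind the knockout gate 10 of 19 were higher, against 37.7% of measured genes, among them the endothelin receptor Ednrb (138 against 0 CPM) and Ms4a7 (56.2 against 0.85). In unselected cells 3 of 12 were higher in wild type and 2 of 14 in knockout, each against 18.3% of measured genes, so that the shares there stood near the background.

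The 8 wild-type gated cells with 7 or more members, a grouping chosen after the values were seen, were then set against the other 82 cells of their plate. Of 10 microglial markers 3 were lower, against 36.8% of measured genes: Sall1 at 30.9 against 207 CPM, Slc2a5 at 79.1 against 261 and Tmem119 at 132 against 393. P2ry12 was at 1681 against 1791 CPM. Of the other border-associated macrophage genes 15 of 19 were higher, against 21.3% of measured genes, with a median log2 difference of 2.73 against -0.24 over all genes. Cd209f was at 911 against 0.24 CPM, the lectin Clec10a at 140 against 0.02 and Cd38 at 788 against 5.1. Ednrb was at 1696 against 21.3 CPM and was carried by 6 of 8 against 14 of 82 cells.

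Summed over the same 8 cells, the genes of proliferative-region-associated microglia were low. Gpnmb and Clec7a belong to this early postnatal state. Of 12 measured genes 10 were lower, against 36.8% of all measured genes, and 9 were lower without well H4. The median log2 difference of the 12 was -2.37, against -0.24 over all genes. The fatty acid binding protein gene Fabp5 was at 1.69 against 111 CPM, the cystatin gene Cst7 at 0.63 against 46.7 and Gpnmb at 204 against 1841, while Clec7a was at 239 against 356. Trem2 was at 823 against 1679 CPM. Single cells of the 8 differed, with the summed list at 1010 to 27752 CPM and a median of 2938. The median of all wild-type gated cells was 7574 CPM. Well C7 was not low, with Spp1, a gene of the list, at 23979 CPM and Gpnmb at 574. Among scavenger receptors Cd36, which binds oxidised lipids, was at 600 against 23.5 CPM and was carried by 8 of 8 against 2 of 82 cells. Among genes of heme and iron handling Blvrb, a biliverdin reductase, was at 415 against 61.6 CPM and the iron exporter gene Slc40a1 at 1308 against 613. Detected genes were similar, with medians of 3461.5 and 3136.

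These 8 cells were not alike. A set of 7, wells C7, C8, C9, B3, D1, B6 and H7, held P2ry12 at 1391 to 2749 CPM and Fcrls at 2811 to 7048. These 7 cells carried 7 to 10 of the microglial markers. Other markers were kept less evenly, with Tmem119 at 0 to 654 CPM, Sall1 at 0 to 110 and Slc2a5 at 0 to 349. Their medians were 60.9, 22.8 and 16.4 CPM, and H7 had 0 counts of all 3. Well C7 had 9 members but only 2020 CPM summed over them, with all 10 microglial markers, whereas C9 had 9 members at 14152 CPM. The remaining cell, H4, had 9 members at 17524 CPM and 0 counts of P2ry12, Tmem119, Sall1, Siglech and Slc2a5. Without H4 the same 3 microglial markers were lower, and 16 of the other border-associated macrophage genes were higher. Wells C7, C8 and C9 lie side by side on the plate, and whether that bears on their members was not tested.

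Among the 4 knockout gated cells, wells C12 (9 members, 19117 CPM summed over them) and G3 (8 members, 16131 CPM) had 0 counts of the same 5 microglial genes as H4. They kept the lysophosphatidylserine receptor gene Gpr34 at 852 and 456 CPM and Fcrls at 917 and 1168, and had Csf1r, the receptor that macrophages depend on, at 3499 and 1479. Gpnmb was at 0 in H4, C12 and G3, although they came from the gate for it, and Clec7a was at 543, 312 and 408 CPM. Absence of Gpnmb was not particular to these cells. It reached 10 CPM in 61 of 90 wild-type and 72 of 76 knockout gated cells. Wild-type wells C8 and B6, with 10 and 9 microglial markers, also had 0 counts of it. Wells B4 (3610 CPM summed over 7 members) and C6 (1920 CPM) carried 9 and 7 microglial markers, with P2ry12 at 315 and 203 CPM.

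Absence of those 5 microglial genes was not particular to cells with many members. All 5 were at 0 counts in 7 passing cells, of which 3 had 7 or more members, 1 had 3 and 3 had 0 to 2. The 3 with few members had 424 to 1149 detected genes, and H4, C12 and G3 had 2108, 2109 and 2228. Of 11 cells with 4 or fewer microglial markers, 4 had 3 or more members.

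**Figure D5:**
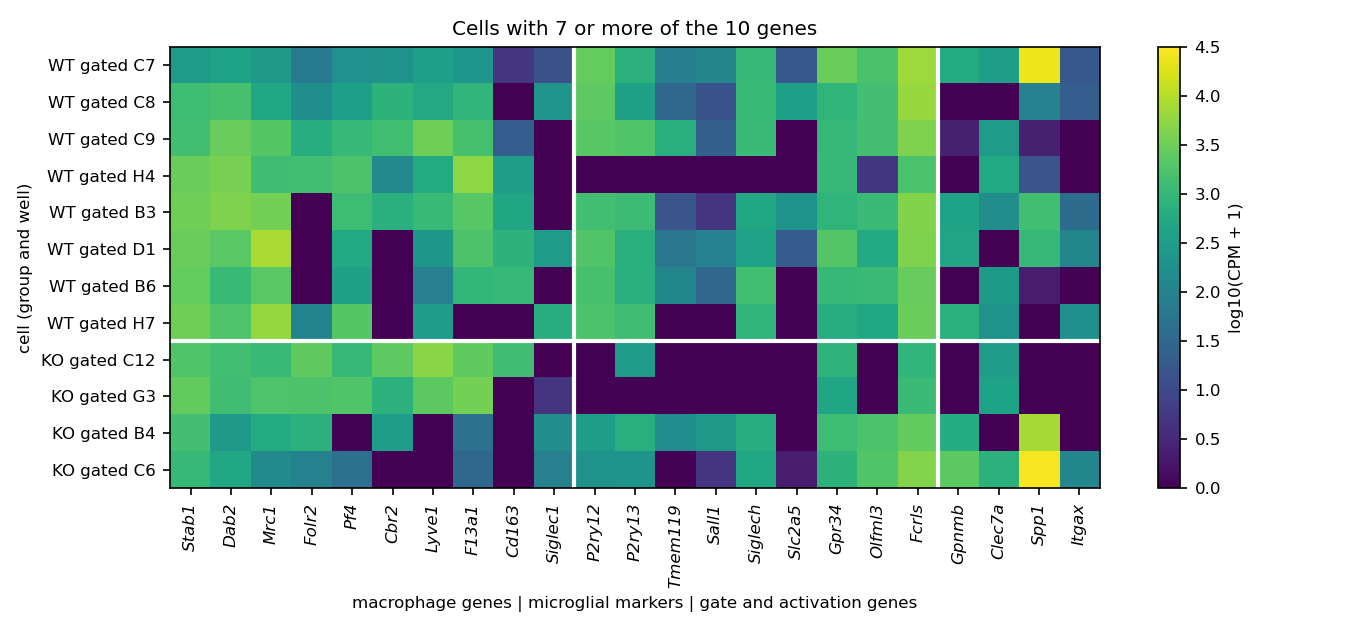
Level, as log10(CPM + 1) in colour, of members, 9 microglial markers and gate and activation genes (horizontal axis) in the 12 gated cells with 7 or more members (vertical axis, named by group and well). H4, C12 and G3 show 0 for P2ry12, Tmem119, Sall1, Siglech and Slc2a5, and the other 9 cells hold P2ry12 at 203 CPM or more.

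Markers of other cell types that the sort could hold were read in the same 12 cells. Ppbp and Itga2b, genes of platelets and megakaryocytes that could accompany Pf4, had 0 counts, and the summed platelet list was at 0 to 8.18 CPM. Lists of lymphocytes, mast cells and neutrophils were at 0, monocytes at 0 to 42.8 CPM and endothelium at 0 to 2.76. Astrocyte genes summed to at most 371 CPM and haemoglobin and other red blood cell genes to at most 2379 CPM, while the highest of all wild-type gated cells reached 28389 CPM for red blood cell genes. Genes of dendritic cells and class II MHC summed to 0 to 363 CPM in the 8 wild-type cells and to 0 in the 4 knockout cells. Among them Zbtb46, a transcription factor gene of dendritic cells, was at 48 against 2.63 CPM and carried by 3 of 8 against 1 of 82 cells. Oligodendrocyte genes reached 224 CPM, from Mog in 1 wild-type cell. The part of these 4 lists in the result was not tested.

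Some of the rarer members met in the same cells, while most carrying cells held only 1 of the 6. In wild-type gated cells 25 carried 1 or more of them and 9 carried 2 or more. In knockout gated cells the numbers were 31 and 9, and Cbr2 (13 cells) and Pf4 (18 cells) met in 3 of 76 cells. In wild-type gated cells all 9 cells with Lyve1 also carried Pf4, Dab2 and Stab1, 7 carried F13a1 and 6 carried Cbr2, and all 5 cells with Cd163 carried Lyve1 and F13a1. Both knockout gated cells with Lyve1, C12 and G3, carried F13a1, Cbr2 and Pf4. Genes outside the members were ranked by their correlation with the mean log2(CPM + 1) of the members across 90 wild-type and 76 knockout gated cells. For this every cell was thinned to 100000 gene counts. Only genes then detected in 10% or more of the cells of both gated plates were ranked. The correlations are descriptions across cells that share a library plate and that vary in the number of detected genes. The 10 genes with the highest smaller value were Ccr1 (r 0.59 in wild type and 0.51 in knockout), Ednrb (0.64 and 0.50), Igfbp4 (0.49 and 0.40), Ms4a7 (0.39 and 0.46), Dse, Ifitm2, Wwp1, Fcna, Ifitm3 and Stard8. Over 6997 ranked genes the median was -0.06 and the 99th percentile 0.213.

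Of these genes Ednrb, Ms4a7 and Fcna were higher behind the gate in both genotypes, and Ccr1, a chemokine receptor, and Igfbp4 stood at lower levels there. Ednrb was at 46.6 CPM in unselected and 169 in gated wild-type cells and at 14 and 125 in knockout cells. Ms4a7 was at 0.15 and 49.4 and at 0.54 and 51 CPM, and Fcna at 0.18 and 98.5 and at 21.8 and 182. Without the 8 wild-type gated cells with 7 or more members, Ednrb stood at 21.3 CPM in the other 82, below the unselected level. Ms4a7 and Fcna stood at 27.7 and 42.3 CPM in the same 82 cells, above theirs. Ccr1 was at 66.8 and 49.4 CPM in wild-type unselected and gated cells and at 93.6 and 29.8 in knockout cells. Igfbp4 was at 303 and 110 and at 251 and 71.6. By the size of the difference between cells with 3 or more members and other cells in both gated plates, the highest genes were Ms4a7, Ednrb, Txnrd2, Gtpbp4, Il15, Sfxn3, Apeh, Pnpt1, Ptk2b and Wwp1. Among the 10 lowest were Aim2, Snx19, Higd1a, Tbccd1, 4933407H18Rik, Mettl11a, Slc35f5, Gal3st4 and Hmga2-ps1, with log2 differences of -1.31 to -2.21.

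Related lists were read by the same rule to place the members' gate differences. Of 19 measured other border-associated macrophage genes 12 were higher and 1 lower behind the wild-type gate, against 15.2% and 19.9% of all measured genes. Fcna, Cd209f, Cd38 and Ms4a7 led, at log2 differences of 6.40, 6.35, 6.23 and 5.45. Cd209f reached 10 CPM in 4 of the 8 wild-type gated cells with 7 or more members and in 1 of the other 82. The numbers were 6 and 3 for Cd38, 4 and 15 for Fcna and 4 and 13 for Ms4a7. Behind the knockout gate 10 of the 19 genes were higher and 3 lower, against 12.4% and 22%, led by Ms4a7 (5.07) and Cd38 (4.76). In the gated cells 6 of these genes were lower and 0 higher in knockout, against 1275 of 10554 measured genes lower and 11.4% higher. Among the 6 were Cd209f (-3.41) and Clec4n (-2.44). Clec4n reached 10 CPM in 4 of the 8 wild-type gated cells with 7 or more members and in 5 of the other 82. The part of those 8 cells in the genotype differences of this list was not tested. Microglial markers went the other way: 5 of 10 were lower in wild type and 6 in knockout behind the gate, with 0 higher, against 19.9% and 22% of all measured genes lower. Tmem119 was at -2.58 and -4.24 and P2ry12 at -1.56 and -2.89.

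Genes that share the members' task of taking up and breaking down material were read next. All counts here stand beside 15.2% of measured genes higher and 19.9% lower behind the wild-type gate, and 12.4% and 22% behind the knockout gate. Of 9 measured scavenger receptors 4 were higher and 1 lower behind the gate in wild type, and 2 higher and 1 lower in knockout. Cd36 was at 74.2 against 2.41 CPM in wild-type gated and unselected cells. It reached 10 CPM in 8 of the 8 wild-type gated cells with 7 or more members. Of the other 82 cells, together at 23.5 CPM, 2 carried it. Of 10 genes of heme and iron handling 5 were higher in each genotype, 0 lower in wild type and 1, the transferrin receptor Tfrc, in knockout. Hmox1, which opens the heme ring, was at 147 against 62.8 CPM in wild type and 205 against 51.8 in knockout. Family relatives of the members went both ways, with 4 higher and 5 lower of 16 in wild type and 3 higher and 7 lower in knockout. With so few genes, the shares higher among these relatives and among the knockout scavenger receptors stood near the background.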

How the data were processed

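Raw read counts, whole numbers with no scaling, were deposited by the authors as a single table with a column for each cell, and groups, wells and quality calls come from the labels. The submitters' processing notes name Trim Galore 0.4.3 and STAR 2.5.3a, besides HTSeq and Picard, and the build mm10. Annotation and strand use in counting were not stated there or in the labels. The 92 spike-in RNAs (3.56% of counts in passing cells) stayed out of library sizes, 0 columns were unused and 0 were identical, and no doublets were called because a well was sorted to hold 1 cell.

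Counts were summed per group and divided by summed gene counts (CPM). Differences are log2 ratios of CPM + 1, which understate low genes. Genes under 5 CPM in all groups were left out as not measured. Genes were located by symbol in GENCODE M21 (mm10); of 186 listed symbols 184 matched, 5 of them by an older name. With 1 sample a group, no p-value was possible.

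The members and lists were chosen with earlier results of these data known, and the groupings by 7 or more members and into 4 and 6 genes after the values were seen. Text names all members, up to 4 measured genes of each other list by the size of the log2 value, P2ry12, Tmem119, Sall1 and Trem2, and the 10 most like and the 10 highest and lowest ranked genes; 2 genes that the rule names are not reported here. Other genes named, such as Gpnmb, Clec7a, Fcrls, Gpr34, Siglech, Slc2a5, Csf1r, Ppbp and Itga2b, were chosen after their values were seen. Scripts used Python 3.11.15, numpy 2.4.6, pandas 2.3.3, scipy 1.17.1, matplotlib 3.10.9, R 4.3.3, edgeR 4.0.16 and DESeq2 1.42.0 (the last 2 for scaling factors only), and were tested on simulated data.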

Additional observations from a re-analysis of the deposited data

Results flagged for a closer look

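Mrc1 differed in opposite ways behind the gate, with a log2 difference of 0.40 in wild type and -0.54 in knockout, so the first minus the second was 0.95. The same difference read by genotype was 0.36 in unselected and -0.58 in gated cells, again 0.95 apart. Dab2 was at 0.67 and -0.20 for genotype in unselected and gated cells, 0.87 apart, and Stab1 at -0.19 and 0.22, which gives -0.41. With 1 plate per group these differences between differences were not tested, and each single value lies within 2-fold. The opposite signs were not stable for Mrc1 and Dab2. With spike-in scaling Mrc1 was at 0.87 and 0.79 behind the wild-type and knockout gates, and at -0.13 and -0.21 for genotype in unselected and gated cells. Without cells with 7 or more members it was at -0.48 and -0.65 behind the gates. Dab2 with spike-in scaling was at 0.18 in both genotype comparisons, and Stab1 at -0.67 and 0.60.

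A knockout gated cell that failed the quality criteria, well D9 with 17570 gene counts, held all 10 members at 10 CPM or more, while the highest number in a passing unselected cell was 6. Its Stab1 level was 6204 CPM, Lyve1 5521, Mrc1 3472, Pf4 3472, Dab2 2220, F13a1 968, Cd163 398, Siglec1 398, Cbr2 341 and Folr2 114. At this depth a single count already exceeds 10 CPM, so the low values rest on few counts.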

How the results depend on the processing

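No paired analysis was possible because each group is 1 plate with no numbered replicates. Where an unselected group held 0 cells with a member, the exact interval reaches 4.02% to 4.62%, for counting error only. Of the alternatives for the counts of members, cells and markers, 104 stayed within 1.5 times and 52 moved. For single members 217 moved by less than counting error, 295 moved more and 8 values past 2-fold changed sign; the cause was not tested beyond what each alternative leaves out.

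Members higher in knockout than in wild-type unselected cells went from 1 to 2 by mean CPM, with a pseudocount of 0.1, after thinning, in cells with 7 or more microglial markers and without the top cell of each member, and to 0 with a pseudocount of 5 or without cells with 7 or more members. Behind the wild-type gate 9 of 10 became 2 of 4 measured without cells with 3 or more members and 4 of 8 without cells with 7 or more. Behind the knockout gate 8 of 10 became 1 of 4 without cells with 3 or more. Between gated groups 1 of 10 became 3 of 8 without cells with 7 or more. Leaving out cells by their number of members removes carrying cells by construction. Without cells with 7 or more, 15% of all measured genes were higher behind the wild-type gate and 11.9% between gated groups. No such share was taken without cells with 3 or more. Scaling by edgeR's TMM, median-of-ratios or spike-ins raised the knockout count to 9 by adding Dab2, and moved the median of all genes by up to 0.42 (wild-type gate), 1.24 (knockout gate), -0.44 (unselected genotypes) and 0.35 (gated genotypes).

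The 25 wild-type unselected cells became 49 with 2 or more members, 5 with 4 or more, 0 with 5 or more and with 7 or more, 16 at 100 CPM, 0 without Dab2, Mrc1 and Pf4, 5 at the lowest with a member left out and 0 without the 4 widespread genes. The 54 wild-type gated cells became 32 with 4 or more, 16 with 5 or more, 8 with 7 or more, 13, 33 and 9 under those 3 omissions. The 31 knockout unselected cells became 62, 12, 3 and 0 with 2, 4, 5 and 7 or more, 20 at 50 CPM, 16 at 100 CPM, and 3, 12 and 0 under the omissions. The 69 knockout gated cells became 22 with 5 or more, 4 with 7 or more, and 19 without the 3 genes and 4 without the 4.

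Microglial markers lower went from 0 to 1 with 4 or more members in both unselected groups. In wild-type gated cells they numbered 3 with 2 or more members, at 50 CPM or with 7 or more, 2 with 5 or more, and 1 with 4 or more, by mean CPM or after thinning; in knockout gated cells 3 with 4 or 5 or more and 1 at 50 CPM. Other border-associated macrophage genes higher numbered 15 with 7 or more members in wild-type gated cells and 1 at 50 CPM in knockout unselected cells. Some cut-offs left under 5 cells on a side and gave no value.

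The 8 values past 2-fold that changed sign were, on the log2 scale behind the knockout gate, Lyve1 at -1.86 in cells with 7 or more microglial markers, -2.38 without cells with 3 or more members and -1.83 without cells with 7 or more, Cd163 at -0.12 under the first and the last of these, and Cbr2 at -0.12 and Pf4 at -1.29 without cells with 3 or more. Behind the wild-type gate Cbr2 was at -1.19 without cells with 7 or more. Values within 2-fold changed sign 19 times. Without cells with 7 or more members Mrc1 went from 0.40 to -0.48 behind the wild-type gate, and between gated genotypes Mrc1 went from -0.58 to 0.19, F13a1 from -0.99 to 2.01, Dab2 from -0.20 to 0.53, Siglec1 from -0.14 to 0.94 and Lyve1 from 0.24 to -0.65. Spike-in scaling turned Mrc1 from -0.54 to 0.79 behind the knockout gate and from 0.36 to -0.13 between unselected genotypes.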
